A study of Mus musculus with 4 samples.

Results

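The genes described are the NF-kB transcription factor subunits, the proteins that hold them back and the feedback regulators of the pathway, in mouse bone marrow-derived macrophages without Jmjd3. They are a list of 35 genes, of which 30 had a probe set assigned to 1 gene on the array, out of 18193 such genes in all. Each gene is represented by its brightest probe set by the mean of the 4 arrays. Nfkb1, Chuk, Tnip3, Ripk1 and Ripk2 had no such probe set in the tables used here and were not analysed here. The 30 genes held 71 probe sets, and 20 of them had more than 1. The brightest probe sets of Nfkbib, Nfkbie, Ikbkg, Bcl10 and Tnfaip2 are of classes marked as able to match transcripts of more than 1 gene.

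Bone marrow cells were grown for 5 days with M-CSF, the growth factor that drives macrophage formation. The 4 groups, of 1 Affymetrix array each, were Jmjd3-/- cells given 100 ng/ml lipopolysaccharide (LPS) for 4 h, Jmjd3-/- cells left unstimulated, wild-type cells given the same LPS treatment, and wild-type cells left unstimulated. Jmjd3 is a histone H3 lysine 27 demethylase encoded by Kdm6b, and the Jmjd3-/- cells are called knockout here. The sources used here give neither the deleted part of the gene nor the number of mice or any pooling, nor is it stated that samples came from separate animals or cultures. Levels are log2 RMA intensities of a probe set, and a difference of 1 on this scale is 2-fold.

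LPS is a component of the outer membrane of Gram-negative bacteria, and Toll-like receptor 4 on macrophages passes its signal to the IkB kinase complex. That kinase marks the IkB proteins for destruction, and the NF-kB dimers they held in the cytoplasm enter the nucleus and switch on inflammatory genes. Among the genes switched on are those of IkB proteins, NF-kB subunits and enzymes that take apart the signal, so the pathway feeds back on itself.

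The arrays were alike in overall level, with medians between 4.15 and 4.24 over 45101 probe sets. All 6 macrophage markers, among them Adgre1, Csf1r and Cd68, were above log2 6 on all 4 arrays. The floor for comparisons was log2 6 on at least 1 of the arrays compared, and all 30 genes passed it over the 4 arrays, 27 of them on every array. On the knockout arrays all 9 measured granulocyte markers and all 10 stromal markers were above log2 6. On the wild-type arrays 4 of the granulocyte markers were above it with LPS and 2 without, and of the stromal markers 5 and 3. Kdm6b itself, on its brightest probe set, read 10.82 in knockout cells with LPS and 9.82 without, against 11.23 in wild-type cells with LPS and 10.33 without, and whether that probe set lies in the deleted part is not known here.

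LPS raised most genes of the pathway in both genotypes. Over both genotypes 21 of the 30 genes rose, 1 fell and 8 did not pass (limma, adjusted p below 0.05 by the Benjamini-Hochberg method, written BH below), while 11.2% of the 9385 genes tested rose and 18.8% fell. The median difference of the 30 genes was 1.47, against -0.22 over all genes tested. The list was chosen with earlier results of these data known, so these shares are a description and not independent support. Both LPS arrays lay above both unstimulated arrays for 27 of the 30 genes, against 19.8% of all genes, and below them for 2, Zfp36l2 and Map3k14, against 41.9%. The exception was Ikbkg, whose knockout level with LPS was just under its unstimulated wild-type level. The difference had the same sign in both genotypes for all 30 genes, a share not counted over all genes. The fit had 1 residual degree of freedom, which is the inequality of the knockout and wild-type responses, so a gene that responded unequally was less likely to pass. Without the genotype term the count of genes that rose was 7 of 30.

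**Figure D1:**
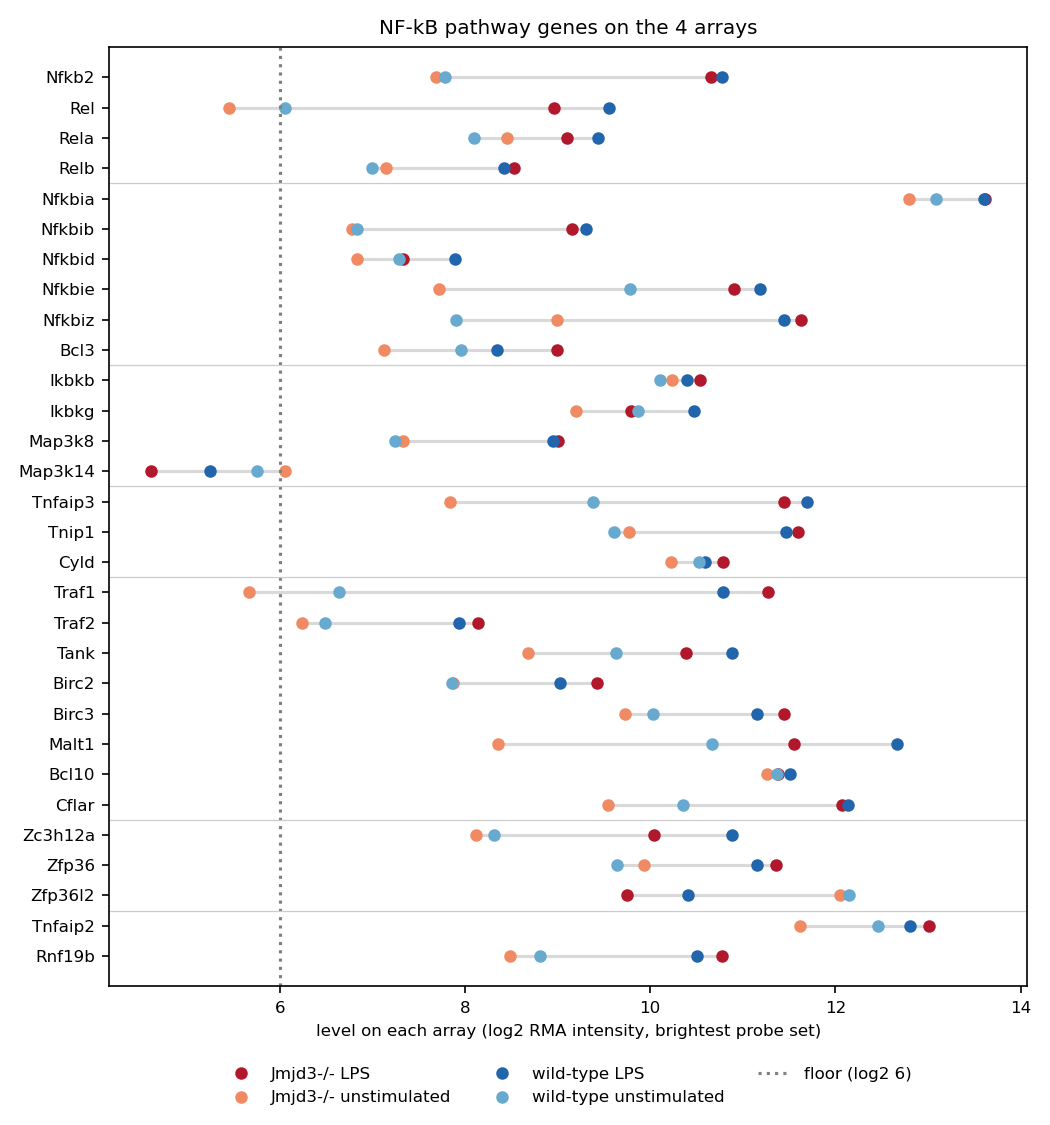
Level of each of the 30 genes (rows, grouped by role) on the 4 arrays, as log2 RMA intensity of the brightest probe set; the dotted line marks log2 6 and grey bars join the lowest and highest array. Both LPS arrays lie to the right of both unstimulated arrays for 27 genes, and for Zfp36l2 and Map3k14 they lie to the left.

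Since these genes moved together with LPS, the sequence before their transcription starts was searched for the site that NF-kB binds, using RefSeq promoters of build GRCm38.p6. Of the 30 genes 24 had an entry, and the 250 bases before each annotated start were read on both strands. A strict form of the NF-kB site, with all but 1 of its letters fixed, was found in 3 of the 24 genes (Cyld, Nfkb2 and Nfkbia), and in 0.414% of 27025 genes of the table. A loose form, which fixes only the run of G at one end and the pair of C at the other and so takes in the strict one, was found in 20 of 24, and in 48.7% of all genes. The kB consensus with its degenerate middle letters, added after these matches were seen and also taking in the strict form, was found in 10 of 24, and in 4.46% of all genes. Among the 10 genes with that consensus 7 rose with LPS and among the 14 without it 10 rose. Traf1, the gene with the largest LPS difference, had no match in its window. A match is a run of letters and not a measured binding site.

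The 5 sequences shown all hold a match to the kB consensus, and are those of genes that rose with LPS and that encode NF-kB subunits, an IkB protein or feedback regulators: Rel (chr11:23770970-23771219, minus strand), Nfkb2 at its most upstream annotated start (chr19:46304487-46304736, plus strand), Nfkbia (chr12:55492648-55492897, minus strand), Tnfaip3 at its most upstream annotated start (chr10:19015411-19015660, minus strand) and Tnip1 (chr11:54962941-54963190, minus strand). They do not stand for the 10 genes that rose and had no match, and the other annotated start of Tnfaip3 had none. Each runs 5′ to 3′ on the gene's strand and ends at the base before the start, and capitals mark matches to the kB consensus on either strand, overlapping ones joined.
Rel: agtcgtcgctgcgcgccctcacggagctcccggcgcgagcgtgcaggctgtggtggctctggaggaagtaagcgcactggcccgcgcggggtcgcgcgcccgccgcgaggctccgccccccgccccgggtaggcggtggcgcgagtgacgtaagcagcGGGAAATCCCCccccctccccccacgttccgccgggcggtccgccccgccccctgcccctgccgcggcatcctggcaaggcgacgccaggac
Nfkb2: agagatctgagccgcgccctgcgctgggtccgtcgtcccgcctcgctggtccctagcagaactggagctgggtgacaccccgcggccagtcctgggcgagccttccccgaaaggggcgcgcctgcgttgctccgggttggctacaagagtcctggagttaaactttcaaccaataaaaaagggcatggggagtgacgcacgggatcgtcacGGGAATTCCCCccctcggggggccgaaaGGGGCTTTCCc
Nfkbia: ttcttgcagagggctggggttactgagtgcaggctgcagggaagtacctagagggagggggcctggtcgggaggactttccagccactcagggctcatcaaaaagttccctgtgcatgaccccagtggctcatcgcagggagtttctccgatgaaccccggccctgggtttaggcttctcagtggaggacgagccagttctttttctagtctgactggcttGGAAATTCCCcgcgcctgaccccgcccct
Tnfaip3: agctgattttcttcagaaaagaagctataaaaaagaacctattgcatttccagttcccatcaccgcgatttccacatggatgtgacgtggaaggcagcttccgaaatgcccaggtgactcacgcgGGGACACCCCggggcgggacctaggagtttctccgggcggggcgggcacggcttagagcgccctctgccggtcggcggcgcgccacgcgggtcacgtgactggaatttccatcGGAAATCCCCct
Tnip1: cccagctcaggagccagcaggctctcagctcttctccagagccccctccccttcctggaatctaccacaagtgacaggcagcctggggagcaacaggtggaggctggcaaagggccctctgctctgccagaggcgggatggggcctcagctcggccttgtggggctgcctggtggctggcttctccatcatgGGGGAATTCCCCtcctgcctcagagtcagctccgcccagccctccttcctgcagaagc
The match in Nfkbia began 29 bases before the start. In Nfkb2 the matches began 39, 38 and 11 bases before it, and in Tnfaip3 125 and 12 bases before it. Those of Rel and Tnip1 were overlapping, within runs that began 92 and 58 bases before the start.

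All 4 measured NF-kB subunit genes rose with LPS. Rel encodes c-Rel, a subunit abundant in cells of the immune system, and read 8.96 in knockout and 9.55 in wild-type cells with LPS, against 5.45 in knockout and 6.06 in wild-type cells without. Its shared LPS difference was 3.50 with a standard error of 0.19 (limma, BH-adjusted p = 0.00238, higher in both genotypes), and the 2 responses differed by 0.02. The unstimulated knockout value of Rel lay under the floor. Nfkb2, whose product is the precursor of a subunit of the noncanonical pathway, read 10.66 in knockout and 10.77 in wild-type cells with LPS, against 7.69 in knockout and 7.78 in wild-type cells without. Its shared difference was 2.98 with a standard error of 0.18 (limma, BH-adjusted p = 0.0027, higher in both genotypes). On these probe sets of both genes the LPS arrays were about equally far above the unstimulated ones in each genotype. A second, dimmer probe set of Nfkb2 gave smaller LPS differences, 1.79 in knockout and 1.35 in wild-type cells.

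Relb, the partner of the processed Nfkb2 product, had a shared difference of 1.40. Rela, which encodes the subunit that carries most canonical NF-kB activity, read 9.10 in knockout and 9.44 in wild-type cells with LPS, against 8.45 in knockout and 8.10 in wild-type cells without. Its LPS difference was 0.64 in knockout and 1.35 in wild-type cells, and it passed narrowly (0.99, limma, BH-adjusted p = 0.0392, higher in both genotypes). Without the intensity trend in the fit Rela did not pass, at an adjusted p of 0.0618.

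Of the 6 genes of IkB proteins 4 rose with LPS, and the other two, Nfkbid and Bcl3, differed by 0.55 and 1.12 without passing (limma, BH-adjusted p = 0.0861 and 0.0827, higher in both genotypes). Nfkbia encodes IkBalpha, the main inhibitor that is destroyed and remade after each signal, and it read 13.62 in knockout and 13.60 in wild-type cells with LPS, against 12.80 in knockout and 13.09 in wild-type cells without. The shared difference was 0.66. Without the intensity trend in the fit Nfkbia did not pass, at an adjusted p of 0.0799. Its 5 probe sets gave different sizes: in a fit of every probe set on its own the shared differences were 0.66, 0.78, 0.83, 1.67 and 2.05, and the 2 largest came from the dimmest pair. The size of the Nfkbia difference therefore depends on the probe set, while the direction was the same on all of them.

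Nfkbib encodes IkBbeta, another cytoplasmic inhibitor, and rose by 2.42. Its level was 9.15 in knockout and 9.31 in wild-type cells with LPS, against 6.78 in knockout and 6.83 in wild-type cells without. Nfkbiz, whose product works in the nucleus and is needed for Il6 and other secondary response genes, read 11.63 in knockout and 11.45 in wild-type cells with LPS, against 8.99 in knockout and 7.90 in wild-type cells without. Its LPS difference was 2.64 in knockout and 3.55 in wild-type cells, with a shared difference of 3.10 (limma, BH-adjusted p = 0.00497, higher in both genotypes). Its unstimulated level was thus the higher one in knockout cells, by 1.10, and the 2 dimmer probe sets of Nfkbiz gave 1.28 and 0.91 for the same difference.

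Nfkbie and Bcl3 responded unequally. Nfkbie, the gene of IkBepsilon, read 10.90 in knockout and 11.19 in wild-type cells with LPS, against 7.72 in knockout and 9.78 in wild-type cells without. The LPS arrays were close to each other and the unstimulated knockout array was low, so the LPS difference was 3.18 in knockout and 1.42 in wild-type cells. A second probe set of Nfkbie gave 3.05 in knockout and 1.39 in wild-type cells. Bcl3, an IkB-like protein that acts in the nucleus with NF-kB subunits, read 8.99 in knockout and 8.35 in wild-type cells with LPS, against 7.13 in knockout and 7.96 in wild-type cells without, and its LPS difference was 1.86 in knockout and 0.39 in wild-type cells.

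**Figure D2:**
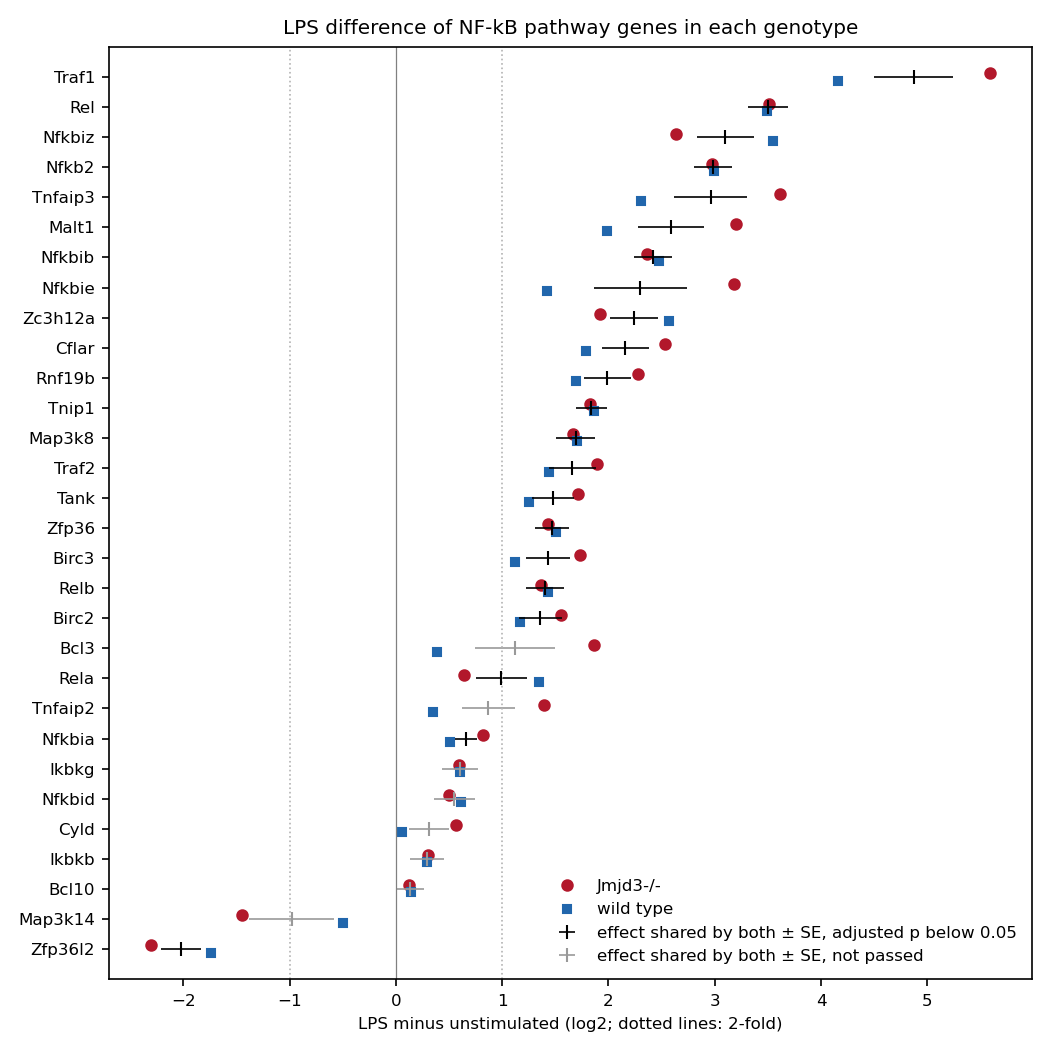
LPS minus unstimulated level (log2) of each gene in knockout (circles) and wild-type cells (squares), with the effect shared by both and its standard error from limma in black where the adjusted p was below 0.05 and in grey elsewhere; dotted lines mark 2-fold. Traf1 leads at 5.59 in knockout and 4.16 in wild-type cells, and Zfp36l2 is lowest at -2.30 in knockout and -1.74 in wild-type cells.

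Of 4 measured kinase genes 1, Map3k8, rose. Ikbkb, a catalytic subunit of the IkB kinase complex, differed by 0.29 and Ikbkg, its regulatory subunit also called NEMO, by 0.60, and neither passed (limma, BH-adjusted p = 0.22 and 0.059). The probe sets of Ikbkg disagreed. Fitted on its own, a dimmer one rose (0.82, limma, BH-adjusted p = 0.0354), while another was lower with LPS, by -0.64 in knockout and -0.21 in wild-type cells. Map3k8, the kinase also called Tpl2 that links the IkB kinase to the ERK pathway, rose by 1.69, with LPS differences of 1.67 in knockout and 1.70 in wild-type cells. Map3k14, the NF-kB-inducing kinase of the noncanonical pathway, read 4.61 in knockout and 5.25 in wild-type cells with LPS, against 6.06 in knockout and 5.75 in wild-type cells without. It reached the floor on 1 array only, and its difference of -0.98 did not pass (limma, BH-adjusted p = 0.126, lower in both genotypes).

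Of the genes of the ubiquitin-editing group, Tnfaip3 and Tnip1 rose and Cyld did not pass. Tnfaip3 encodes A20, which ends NF-kB signalling by editing ubiquitin chains, and read 11.45 in knockout and 11.69 in wild-type cells with LPS, against 7.84 in knockout and 9.38 in wild-type cells without. Its LPS difference was 3.61 in knockout and 2.31 in wild-type cells, with a shared difference of 2.96 (limma, BH-adjusted p = 0.00812, higher in both genotypes). Tnip1, whose product binds A20, rose by 1.84, with LPS differences of 1.83 in knockout and 1.86 in wild-type cells. Cyld, the gene of another deubiquitinase, differed by 0.57 in knockout and 0.06 in wild-type cells.

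Of 8 adaptor and cell survival genes 7 rose, all but Bcl10, which lay between 11.26 and 11.51 on the 4 arrays. Traf1, an adaptor of TNF receptors, had the largest LPS difference of the 30 genes. It read 11.27 in knockout and 10.79 in wild-type cells with LPS, against 5.67 in knockout and 6.64 in wild-type cells without, the knockout value under the floor. Its shared difference was 4.87 with a standard error of 0.37 (limma, BH-adjusted p = 0.0038, higher in both genotypes). With the knockout value set to the floor its LPS difference was 5.27 in knockout cells, against 4.16 in wild-type cells. A second, dimmer probe set of Traf1 gave 4.01 in knockout and 3.65 in wild-type cells, with the unstimulated values of both genotypes under the floor. Traf2, the adaptor that recruits the cIAP ubiquitin ligases, rose by 1.66 and Tank, which binds TRAF proteins, by 1.48. Birc2 and Birc3, the cIAP genes, rose by 1.36 and 1.43. Cflar, whose product c-FLIP blocks caspase-8, rose by 2.16, and its 5 probe sets fitted on their own gave between 1.25 and 4.20.

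Malt1 encodes the protease of the CARD-BCL10-MALT1 complex. It read 11.55 in knockout and 12.66 in wild-type cells with LPS, against 8.36 in knockout and 10.67 in wild-type cells without. Its LPS difference was 3.20 in knockout and 1.99 in wild-type cells, with a shared difference of 2.59 (limma, BH-adjusted p = 0.00898, higher in both genotypes). The knockout level was the lower one in both states.

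The genes of RNA decay proteins, which remove cytokine transcripts, split. Zc3h12a, the gene of the RNase Regnase-1, rose by 2.24, with LPS differences of 1.92 in knockout and 2.57 in wild-type cells. Zfp36, the gene of tristetraprolin, rose by 1.47. Its relative Zfp36l2 was the 1 gene of the list that fell: it read 9.75 in knockout and 10.41 in wild-type cells with LPS, against 12.05 in knockout and 12.15 in wild-type cells without (-2.02, limma, BH-adjusted p = 0.00567, lower in both genotypes). A dimmer probe set of Zfp36l2 differed by -0.38 and did not pass (limma on every probe set, BH-adjusted p = 0.239).

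Of the remaining pair, Rnf19b, a ubiquitin ligase gene, rose by 1.99. Tnfaip2, a TNF-inducible gene, read 13.01 in knockout and 12.81 in wild-type cells with LPS, against 11.62 in knockout and 12.46 in wild-type cells without, and did not pass on its brightest probe set (0.87, limma, BH-adjusted p = 0.0594, higher in both genotypes). In the fit of every probe set on its own that same probe set passed (0.87, limma, BH-adjusted p = 0.0483), and a dimmer one gave 1.68 (0.0361) and the dimmest 1.25 without passing (0.0706). When every probe set was fitted on its own, a setting chosen after seeing the data, 23 of the 30 genes had a probe set that rose and 1 had a probe set that fell, and 43 of 62 probe sets past the floor rose, against 12.8% of all 15527 probe sets tested. The 1 that fell was of Zfp36l2, against 18.5% of all.

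**Figure D3:**
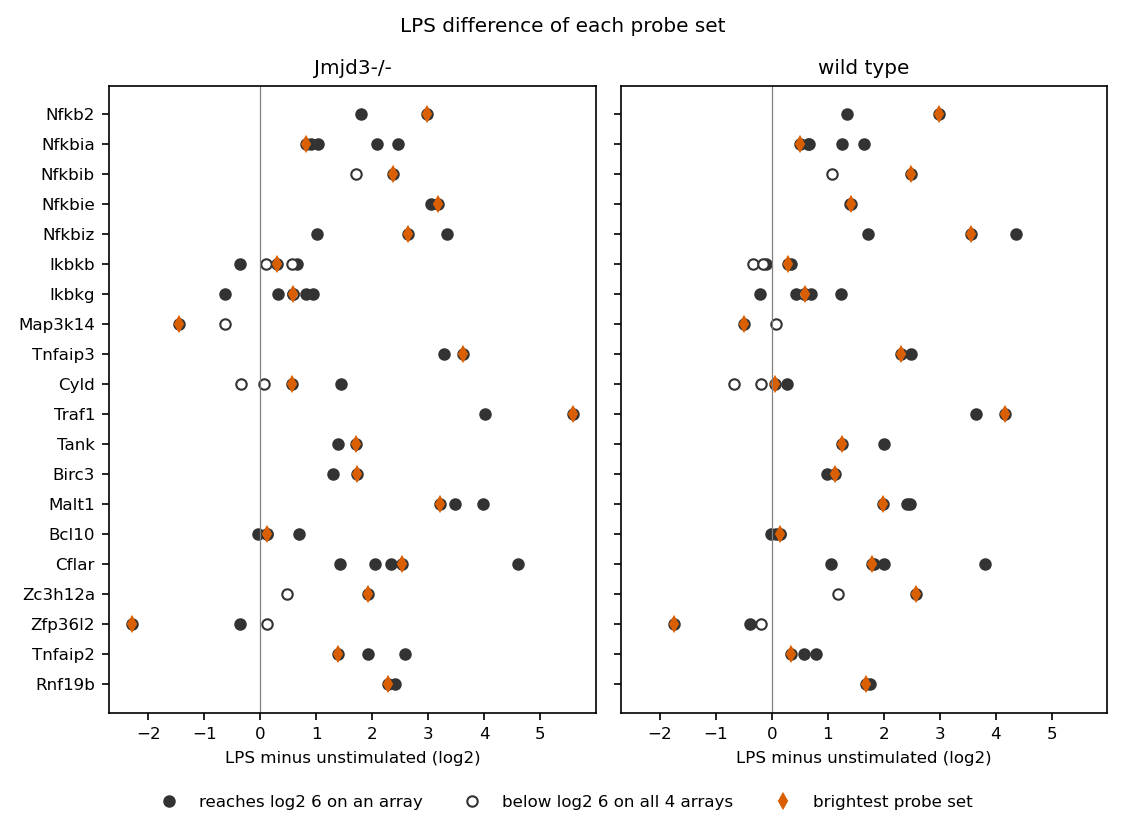
LPS minus unstimulated level (log2) of every probe set of the 20 genes with more than 1, in knockout (left) and wild-type cells (right); filled circles reach log2 6 on an array, open circles do not, and diamonds mark the brightest probe set. Probe sets of Nfkbia spread from 0.82 to 2.45 in knockout and from 0.51 to 1.65 in wild-type cells, all above 0.

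Counted within each genotype, with no test, 21 of 30 genes were 2-fold or more higher with LPS in knockout cells, against 11% of all genes, and 2, Zfp36l2 and Map3k14, were lower, against 15.5%. In wild-type cells 20 of 29 were higher, against 9.86%, and 1, Zfp36l2, was lower, against 14.3%. There were 19 genes at 2-fold or more higher in both genotypes, a share not counted over all genes. The median LPS difference was 1.72 in knockout and 1.43 in wild-type cells, and over all genes past the floor it was -0.26 in knockout and -0.19 in wild-type cells.

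Between genotypes few of these genes differed. Over both states 1 of the 30 fell in knockout cells and 0 rose (limma, BH-adjusted p below 0.05), while 3.12% of all genes tested fell and 6.39% rose. This is the same fit, with 1 array per group and 1 residual degree of freedom. Its standard errors and p-values do not measure the spread between animals or cultures of a group. At an unadjusted p below 0.05 there were 7 of the 30, all lower in knockout cells, against 24.4% of all genes in either direction. The adjusted share that fell and the unadjusted share in either direction are near those of all genes. The 24.4% was not split by direction. Granulocyte and stromal markers moved with the same comparison: the summed linear intensity of the 9 granulocyte markers was 34300 and 35150 on the knockout arrays with and without LPS, against 1900 and 1176 on the wild-type arrays with and without LPS. In the same order of states, that of the 10 stromal markers was 25160 and 30200 on the knockout arrays, against 769.1 and 646.5 on the wild-type arrays. Some markers of 3 other cell types fell in knockout cells (limma). Of 4 tested dendritic cell markers 3 fell, Ccr7 (-2.69), Itgax (-2.25) and Dpp4 (-1.31). Both tested T cell markers fell, Cd3g (-3.33) and Cd3e (-3.06). Of 4 mast cell and basophil markers 2 fell, Fcer1a (-3.75) and Mcpt8 (-2.07), while Cpa3 (-2.6) and Hdc (0.35) did not pass. The summed intensity of the 5 dendritic markers was 1333 and 1059 on the knockout arrays with and without LPS, against 6406 and 4497 on the wild-type arrays. That of the 4 lymphocyte markers was 99.78 and 86.81 on the knockout arrays, against 348 and 278.2 on the wild-type arrays. That of the 4 mast cell and basophil markers was 1460 and 133.1 on the knockout arrays, against 1343 and 327.3 on the wild-type arrays, so with LPS it was not lower in the knockout. On the LPS arrays Hdc alone read 10.44 in knockout and 9.53 in wild-type cells, where the log2 of that sum was 10.51 and 10.39. The levels of Cd3e, Cd3g, Fcer1a, Mcpt8 and Cpa3 on both knockout arrays were under the floor of log2 6, so the sizes of these differences are not well measured. The unstimulated knockout levels of Ccr7 (3.17) and Dpp4 (5.74) were also under it. Set to the floor, they gave differences without LPS of -0.17 for Ccr7 and -1.13 for Dpp4. With LPS the differences were -2.39 for Ccr7 and -1.24 for Dpp4. The summed intensity of the 6 macrophage markers was 21310 and 23380 on the knockout arrays, against 18660 and 19160 on the wild-type arrays. Of these 6, Itgam fell (-1.04) and Fcgr1 rose (0.76) in knockout cells (limma, BH-adjusted p = 0.0385 and 0.0325), and 4 did not pass. The part of these cells in the genotype differences was not tested, and in such bulk samples fewer cells of a type and less RNA per cell cannot be told apart.

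The gene that fell was Malt1, by 1.71 with a standard error of 0.31 (limma, BH-adjusted p = 0.0378, lower in both states). The knockout level was 2.15-fold lower with LPS and 4.97-fold lower without. All 3 of its probe sets were lower in knockout cells, with differences of -2.23, -1.71 and -1.68 when each was fitted on its own (limma, BH-adjusted p = 0.0281, 0.0301 and 0.0309). They were the 3 probe sets of the list that fell, of 62, against 3.35% of all probe sets, and 0 rose, against 5.67%. The call did not hold for the mean of the probe sets (limma, BH-adjusted p = 0.0637), a floor of log2 8 (0.0634) or no intensity trend (0.0822), nor without the LPS term (1). Bcl10, the partner of Malt1 in the complex, differed by -0.12 over both states (limma, BH-adjusted p = 0.613).

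Ikbkg was the 1 gene with both knockout arrays below both wild-type arrays, against 12.8% of all genes, and 0 genes had them above, against 17.7%. It read 9.79 in knockout cells with LPS and 9.20 without, against 10.47 in wild-type cells with LPS and 9.87 without, a difference of -0.67 in each state that did not pass (limma, BH-adjusted p = 0.0905). Ikbkg lies on the X chromosome. Xist, the RNA made from the inactive X, read 8.27 and 8.09 on the knockout arrays with and without LPS, against 5.77 and 5.69 on the wild-type arrays, while the Y-linked Eif2s3y lay between 10.45 and 10.76 on all 4 arrays. The sources used here do not give the sex of the mice, and its part in the Ikbkg difference was not tested. Tank differed by -0.72 and Rel by -0.60 over both states, neither passing (limma, BH-adjusted p = 0.108 and 0.133).

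The genotype difference was wider without LPS than with it. In unstimulated cells Malt1 (-2.31), Nfkbie (-2.05) and Tnfaip3 (-1.53) were 2-fold or more lower in the knockout, 3 of 30 against 5.74% of all genes, and Nfkbiz (1.10) was higher, against 9.54%. With LPS Malt1 (-1.11) was the 1 gene of 29 that was 2-fold or more lower, against 5.65%, and none was higher, against 9.76%. The differences of the list ran from -2.31 to 1.10 without LPS and from -1.11 to 0.64 with it, with medians of -0.27 without LPS and 0.02 with it, against 0.07 and 0.04 over all genes. In unstimulated cells 21 of 30 genes were lower in the knockout, against 43.2% of all genes, and with LPS 14 of 29 were, against 45.9%. These are differences between single arrays and have no test.

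**Figure D4:**
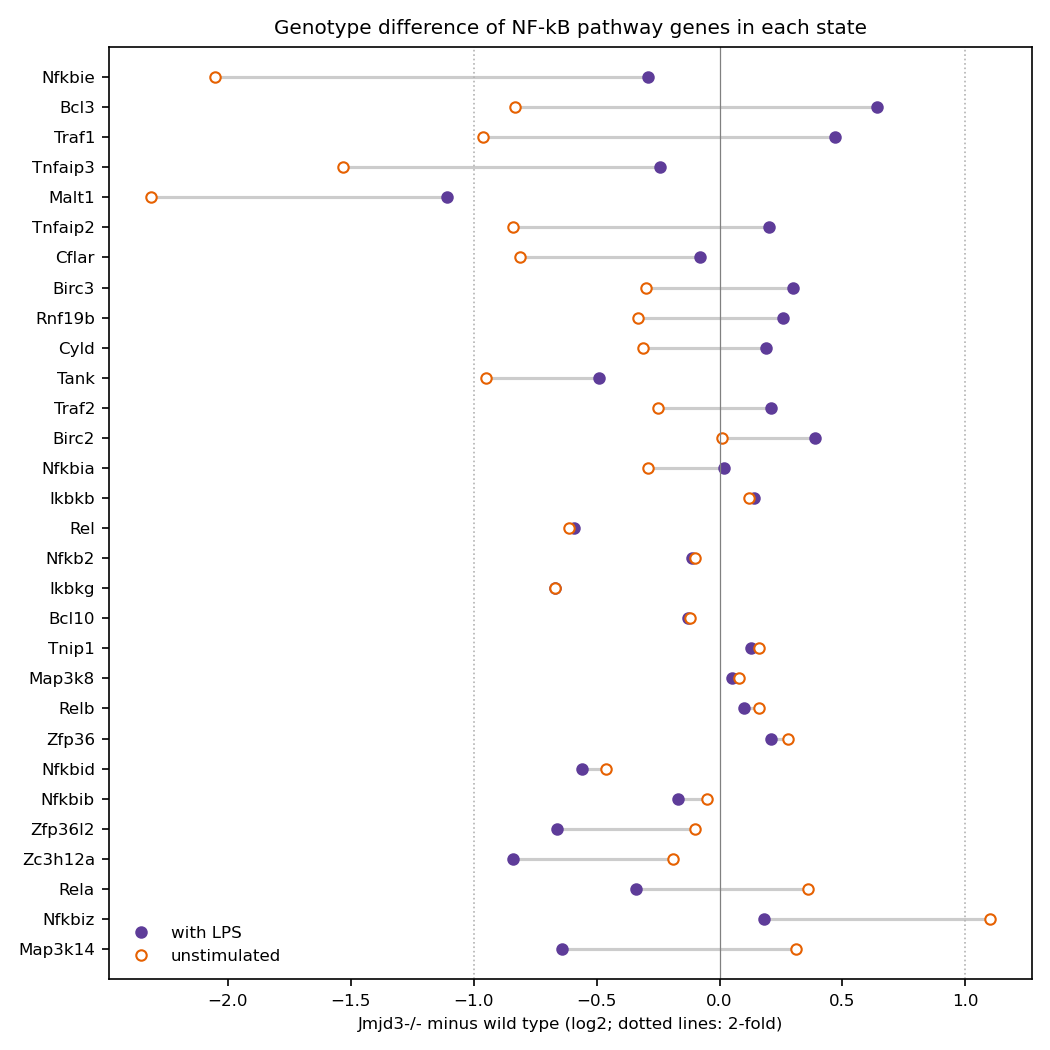
Knockout minus wild-type level (log2) of each gene with LPS (filled) and unstimulated (open), ordered by the difference between the 2 states; dotted lines mark 2-fold. At the top Nfkbie, Bcl3, Traf1, Tnfaip3, Malt1 and Tnfaip2 are lower in unstimulated knockout cells and their differences lie closer to or above 0 with LPS.

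In 6 genes the LPS difference was 2-fold or more larger in knockout than in wild-type cells: Nfkbie by 1.76, Bcl3 by 1.47, Traf1 by 1.43, Tnfaip3 by 1.29, Malt1 by 1.21 and Tnfaip2 by 1.04. Other probe sets gave smaller values for a pair of them, 0.36 for Traf1 and 0.80 for Tnfaip3. Unstimulated values of that pair of probe sets were under the floor in both genotypes. Every further probe set of Nfkbie, Malt1 and Tnfaip2 gave 1.05 or more, and Bcl3 had 1 probe set. Among these, the dimmest of Tnfaip2 was under the floor unstimulated in both genotypes, and 1 of Malt1 in knockout cells (5.82). The count was 5 without Traf1 when probe sets were averaged or 64 was added to the linear values, and 5 without Tnfaip2 after quantile normalization. All 6 had a lower unstimulated level in knockout than in wild-type cells, but both measures use the same unstimulated arrays. Among all genes 5.19% were that much larger in the knockout. None of the 30 was 2-fold or more smaller in knockout cells, against 4.73% of all genes, and the lowest values were those of Map3k14 (-0.95) and Nfkbiz (-0.91). The dimmer probe sets of Nfkbiz gave -0.7 and -1.02, the latter past 2-fold but with an unstimulated wild-type value under the floor (4.76). Over the 30 genes the knockout response minus the wild-type one was above 0 for 16 and below 0 for 14, against 47.6% of all genes above 0. The median was 0.02, against -0.03 over all genes. With 1 array per group the difference between the responses has no test. In contrast Nfkb2, Rel, Relb, Map3k8, Tnip1, Ikbkg, Ikbkb and Bcl10 had responses that differed by 0.06 or less between genotypes on their brightest probe sets, that of Rel against an unstimulated knockout value under the floor. Rel, Relb, Map3k8 and Tnip1 had 1 probe set each. Further probe sets past the floor gave 0.44 for Nfkb2, -0.12 to 0.69 for Bcl10, -0.26 to 0.31 for Ikbkb and -0.43 to 0.24 for Ikbkg.

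Genes around the pathway were read from lists, which were also chosen with earlier results of these data known. Of 22 tested genes that carry the signal from Toll-like receptor 4 to the IkB kinase 9 rose with LPS, led by Rnf31 (2.06), the catalytic subunit of the linear ubiquitin ligase, Myd88 (1.76), the receptor adaptor, and Irak3 (1.58), a negative regulator. Tollip (-0.54), an adaptor of interleukin-1 and Toll-like receptors, fell, and the list's median was 0.15. Of 31 textbook NF-kB target genes outside the list 26 rose and 0 fell (limma; at an unadjusted p below 0.05 there were 29, all higher), with a median of 2.67. Of 9 tested genes of TNF receptor signalling Casp8 (1.05) and Tnfrsf1b (0.96) rose.

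Between genotypes Tlr4, the LPS receptor itself, was the 1 gene of the 22 that fell. It read 8.69 in knockout cells with LPS and 9.24 without, against 10.15 in wild-type cells with LPS and 10.61 without (-1.42, limma, BH-adjusted p = 0.0134, lower in both states). Of the 31 target genes Csf2 (-4.28), Ptx3 (-2.22) and Cxcl2 (-2.19) fell and Cd83 (1.69) and Csf1 (1.53) rose in knockout cells, with a median of -0.97, against 0.05 over all genes tested. That median is of effects shared by both states, and the gap was wider without LPS. The median level of the 31 genes was 8.18 in knockout and 9.77 in wild-type cells without LPS, against 12.06 and 12.43 with LPS. The unstimulated knockout value of Csf2 was 3.79, under the floor, and set to the floor it gave a difference of -2.81 without LPS, beside -3.54 with LPS. Lta (-2.47), the lymphotoxin alpha gene, was the 1 of 9 TNF receptor pathway genes that fell, and none of them rose (limma; 2 were higher at an unadjusted p below 0.05). Both knockout values of Lta were under the floor, at 5.42 with LPS and 3.33 without, against 7.23 and 6.46 in wild-type cells with and without LPS, so the size of its difference is not well measured. With both set to the floor the differences of Lta were -1.23 with LPS and -0.46 without.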

How the data were processed

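The authors deposited RMA-normalized values on a log2 scale, 1 per probe set and array, per the submitters' processing notes; the RMA version and any other arrays of the run are not stated there. Biotinylated cRNA was prepared from Trizol-extracted total RNA with the NuGEN Ovation system, per the labels' protocols. Of 45101 probe sets 34945 were listed with 1 gene, and 34741 of these matched a RefSeq gene identifier (GRCm38.p6). Probe sets with no or several genes were left out. The number of arrays limits the precision.

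The shared LPS and genotype effects were fitted with limma 3.58.1 (R 4.3.3), as additive terms and with the intensity trend, over the 9385 genes at or above log2 6 on an array, with 1 residual and 3.84 prior degrees of freedom, and Benjamini-Hochberg adjustment over all of them. The code was tested on simulated data whose noise followed the fit's own variance model, which leaves untested whether that model holds for these arrays. Differences between 2 arrays have no test. The members and lists were chosen with earlier results of these data known. All members could be named. Of other lists the 3 genes with the largest LPS effect and the 2 with the largest genotype effect could be named, and further ones that passed in counts of 5 or fewer were named after their values were seen. Alternatives were another floor, probe set rule, normalization, offset and model. Tables were handled with Python 3.11.15 and pandas 2.3.3.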

Additional observations from a re-analysis of the deposited data

Results flagged for a closer look

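The knockout minus wild type difference had opposite signs with and without LPS in 10 of the 30 genes. The share over all genes was not counted, so whether this is particular to the list is not known. The difference was not tested, since each group had 1 array. The change in it, the knockout LPS response minus the wild-type one, was 1.47 for Bcl3, 1.43 for Traf1, 1.04 for Tnfaip2, 0.60 for Birc3, 0.59 for Rnf19b, 0.51 for Cyld, 0.46 for Traf2 and 0.31 for Nfkbia, each lower in unstimulated knockout cells and higher with LPS. It was -0.95 for Map3k14 and -0.70 for Rela, each higher in unstimulated knockout cells and lower with LPS. The genotype difference of Bcl3 was 0.64 with LPS and -0.83 without, and that of Traf1 0.47 and -0.96. The sign did not change on every probe set of a gene. A second probe set of Traf1 gave -0.10 with LPS and -0.46 without, and a second one of Birc3 -0.27 and -0.58. Unstimulated values of that Traf1 probe set were under log2 6 in both genotypes. Of the 5 probe sets of Nfkbia the brightest changed sign, at 0.02 and -0.29, and the other four stayed below 0 in both states, between -0.09 and -0.06 with LPS. The Map3k14 values rest on 3 arrays under log2 6.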

How the results depend on the processing

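Of the values of the LPS effect of single genes under all alternatives, 188 kept their direction and their side of the threshold, 17 no longer passed, 15 of them in the model without genotype, and 1 (Tnfaip2, quantile normalization, 0.87) newly passed; none reversed. In the model with 1 term 7 genes were called higher and 0 lower with LPS and 0 lower between genotypes, a model that puts the other factor into the residual, and over all genes it called 183 higher and 84 lower with LPS in place of 1054 and 1769, and 100 and 11 between genotypes in place of 600 and 293. The genotype count of 1 lower gene was 0 with the mean of all probe sets, a floor of log2 8 or no intensity trend; the cause was not tested. Genotype effects near 0 reversed with 64 added to the linear values (Rela -0.01, Traf2 0.01) and with the mean of all probe sets (Ikbkb -0.14, Birc3 -0.21, Rnf19b 0.01). Counts of genes past 2-fold that moved by over 1.5 times were the following. With LPS the count lower in knockout cells was 0 with the mean of all probe sets, and 1 with a floor of log2 8, quantile normalization or the added 64; in wild-type cells it was 0 with the mean of all probe sets. Between genotypes the count higher without LPS was 0 with the added 64, and the count lower with LPS was 2 with the mean of all probe sets. Smaller moves were a count of 5 in place of 6 for larger responses in knockout cells (mean of all probe sets, quantile normalization, the added 64), 4 in place of 3 lower in unstimulated knockout cells (mean of all probe sets, quantile normalization), 22 in place of 21 higher with LPS in knockout cells (mean of all probe sets), and 18 (the added 64) or 19 (floor of log2 8) in place of 20 higher with LPS in wild-type cells. The mean of all probe sets dropped 1 gene below the floor. Over all genes, the genotype calls were 341 higher and 189 lower with the mean of all probe sets, and 298 and 163 with a floor of log2 8, where fewer genes were tested. The model with both terms already compares LPS with no LPS within each genotype, and the model with 1 term is its unblocked form. No paired analysis was possible beyond this because each group had 1 array and so no second replicate number. Rel and Traf1 each had 1 array under log2 6 and Map3k14 had 3, and their differences rest on those values. With values under the floor set to it, the knockout response minus the wild-type one was -0.53 for Rel, 1.11 for Traf1 and -0.06 for Map3k14.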
